A study of Rattus norvegicus with 3 samples.

Results

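The insulin-like growth factor (IGF) system was described over 10 member genes, namely the ligands Igf1 and Igf2, the receptors Igf1r and Igf2r, and the binding proteins Igfbp2, Igfbp3, Igfbp4, Igfbp5, Igfbp6 and Igfbp7. Members were chosen by gene name, with earlier results of these data known. Every probe whose RefSeq transcript accession led to a member was used. A probe was found for 9 of the 10 members, among 13301 genes named in all. Igfbp7 had no probe named in this way, and its level was not analysed here. The 9 members had 12 probes, since Igf1, Igfbp3 and Igfbp4 had 2 probes each and 6 members had 1.

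Cells of 3 kinds from F344 rats were compared on Agilent whole rat genome arrays, with 1 array per cell type. COS1NR is an osteosarcoma cell line and MFH1NR a malignant fibrous histiocytoma (MFH) cell line, a tumor now called undifferentiated pleomorphic sarcoma, and both arose from tumors induced with the chemical carcinogen 4-HAQO. According to the methods, both lines carry a p53 mutation, so the mutation cannot be told apart from the tumor state. The third sample, the untransformed counterpart, was mesenchymal stem cells (MSCs) that grew out of femur bone marrow on plastic, not sorted on surface markers according to the study and grown in medium with more serum than that of the lines. Each sarcoma was represented by 1 cell line, and no replicate culture was measured, so no difference was tested.

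IGF1 and IGF2 are secreted peptides that bind the receptor tyrosine kinase IGF1R, which signals through IRS adaptors to the PI3K-AKT and RAS-MAPK pathways and drives growth and survival. IGF2R, the cation-independent mannose 6-phosphate receptor, does not signal in this way but takes IGF2 into the cell for breakdown and sorts enzymes to lysosomes. The IGFBPs hold the ligands outside the cell, and proteases such as HTRA1 release them. In bone, IGFs act on osteoblasts and their precursors, and IGF2 and its receptor are well known as imprinted genes in rodents.

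In the GRCr8 annotation of RefSeq, Igf2, Igf1r and Igf2r lie on chromosome 1, Igf1 and Igfbp6 on chromosome 7, Igfbp4 on chromosome 10, and the remaining binding proteins lie on chromosomes 9 and 14. Igfbp2 and Igfbp5 are neighbors on chromosome 9, and Igfbp3 is next to Igfbp1, a binding protein outside the member list, on chromosome 14. The position of each probe within its transcript was not analysed here. The upstream sequences of 2 members are shown first because both genes had the same order over the arrays, highest in MSCs, intermediate in MFH1NR and lowest in COS1NR. Each runs 5′ to 3′ along the gene's strand over the 250 bases before its annotated start in GRCr8, and capitals mark CG dinucleotides, which read the same on both strands. The window of Igf2r is chr1:50526628-50526877 on the plus strand, and that of Igfbp6 is chr7:135154669-135154918 on the plus strand.

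Igf2r: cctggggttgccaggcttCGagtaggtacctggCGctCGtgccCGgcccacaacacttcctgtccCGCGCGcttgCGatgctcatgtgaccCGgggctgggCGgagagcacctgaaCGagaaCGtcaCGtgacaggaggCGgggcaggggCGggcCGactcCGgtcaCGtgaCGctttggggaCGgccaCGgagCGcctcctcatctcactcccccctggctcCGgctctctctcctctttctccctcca

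Igfbp6: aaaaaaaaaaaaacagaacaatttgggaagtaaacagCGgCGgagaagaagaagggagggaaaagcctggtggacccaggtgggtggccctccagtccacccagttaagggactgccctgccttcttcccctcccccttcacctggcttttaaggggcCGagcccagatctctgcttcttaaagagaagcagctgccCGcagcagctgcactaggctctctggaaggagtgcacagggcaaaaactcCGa

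The Igf2r window held 23 CG dinucleotides, and 12.3% of the 33469 windows in the promoter table held at least as many. The Igfbp6 window held 5, which was also the median of all windows, so the 2 genes with the same order over the arrays differed in this feature. Igf2 is shown with both starts that the table lists, because it had 1 probe, and which of these transcripts that probe captures was not analysed. These windows are chr1:207253981-207254230 and chr1:207250476-207250725, both on the minus strand.

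Igf2, first start: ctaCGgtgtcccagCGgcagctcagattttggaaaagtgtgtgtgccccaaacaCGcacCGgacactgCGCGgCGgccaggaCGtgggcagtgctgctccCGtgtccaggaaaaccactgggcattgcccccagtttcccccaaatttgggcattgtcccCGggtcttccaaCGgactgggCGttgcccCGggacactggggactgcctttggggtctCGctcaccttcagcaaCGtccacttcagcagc

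Igf2, second start: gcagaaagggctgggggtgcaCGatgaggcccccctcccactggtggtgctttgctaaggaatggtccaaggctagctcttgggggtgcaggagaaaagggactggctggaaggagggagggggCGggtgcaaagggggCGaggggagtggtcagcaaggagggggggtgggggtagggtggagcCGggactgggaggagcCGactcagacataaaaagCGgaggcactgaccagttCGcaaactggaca

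The first Igf2 window held 15 CG dinucleotides and the second held 7. Over the 11 windows of all 10 members the number ranged from 3 in Igf1 to 45 in Igf1r, a count that only 0.4% of all windows reached. A CG count is a description of these letters and not a measure of methylation, which was not measured here.

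The levels below are processed intensities, background-subtracted by the scanner software, and ratios were taken after each array was divided by its own 75th percentile, which was 589 in MSCs against 774 in COS1NR and 994 in MFH1NR. Of 43379 spots that are not controls, 56.6% to 59.7% per array were well above background by the software's call. A probe without that call gives only a bound, computed from the lowest intensity with the call on that array, and the lowest was 18.0, 29.4 and 30.1 in the same order. With 1 array per cell type the precision of a ratio is unknown, and replicate spots, which cover neither cultures nor labeling, had a spread of 0.07 to 0.08 for a log2 ratio of single spots. Probes of the same gene differed more, with a median gap in log2 ratio of 0.18 to 0.36 by comparison (bounds at their bound). COS1NR and MFH1NR shared 1 slide, which did not hold MSCs, and effects of the slide and of the cell type cannot be told apart in ratios to MSCs.

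The labelled cell types were checked against markers. In MSCs all 4 MSC markers (Nt5e, Thy1, Eng, Cd44) were well above background, while Thy1 and Eng were not in COS1NR and Eng was not in MFH1NR. Of 7 osteoblast markers with a probe, 6 were well above background in MSCs against 5 in COS1NR and 6 in MFH1NR. Sp7, a defining regulator of osteoblasts, was well above background in MFH1NR alone. Ibsp went the other way between the lines, with intensities of 491 for COS1NR and 51.7 for MFH1NR (log2 ratio -3.61). Of 6 osteoblast markers with a value for MFH1NR over COS1NR, 3 passed 2-fold upward and 1, Ibsp, downward. The MSC array also carried macrophage markers, with 11 of 11 well above background against 6 in COS1NR and 5 in MFH1NR. The sum of their scaled intensities, in units of the array's 75th percentile, was 129 in MSCs against 9.51 in COS1NR and 4.58 in MFH1NR, and C1qa, Mrc1 and Adgre1 lacked the call in both lines. Summed pan-leukocyte markers (3 genes) were highest in MSCs too, at 26.7, 3.76 and 0.560 in MSCs, COS1NR and MFH1NR, as were smooth muscle markers (4 genes), at 142, 1.69 and 1.12. The part of these cell types in the member ratios to MSCs was not tested, and fewer cells of a type and less RNA per cell cannot be told apart in these bulk samples.

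Most members were lower in the sarcomas than in MSCs. Of the 9 members with a probe, 8 were well above background on at least 1 array and 5 on all arrays, the latter being both ligands, both receptors and Igfbp4. In COS1NR, 5 of 8 members were at least 2-fold lower than in MSCs (Igf1r, Igf2r, Igfbp3, Igfbp4 and Igfbp6), where 20.1% of all genes were, and 1 of 8 was at least 2-fold higher (Igf2), where 20.8% of all genes were. In MFH1NR, 7 of 8 were at least 2-fold lower (all but Igfbp2), against 21.6% of all genes, and 0 of 8 were at least 2-fold higher, against 19.3%. Lower in both sarcomas were 5 of 8, where 13.7% of all genes were, and higher in both were 0, where 11.4% were. Igf2 alone among the 8 moved at least 2-fold in opposite directions, as 2.37% of all genes did. The median log2 ratio of the 8 members was -2.10 in COS1NR and -2.59 in MFH1NR, where the medians of all genes were 0.11 and 0.02. Between the sarcomas, 2 of 7 members with a value were at least 2-fold higher in MFH1NR (Igf2r and Igfbp6), against 12.5% of all genes, and 3 of 7 were lower (Igf1, Igf2 and Igfbp3), against 15.2%. With the second probe of Igf1, which had the opposite direction, these counts were 3 higher and 2 lower, and the count lower in COS1NR than in MSCs was 6.

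**Figure D1:**
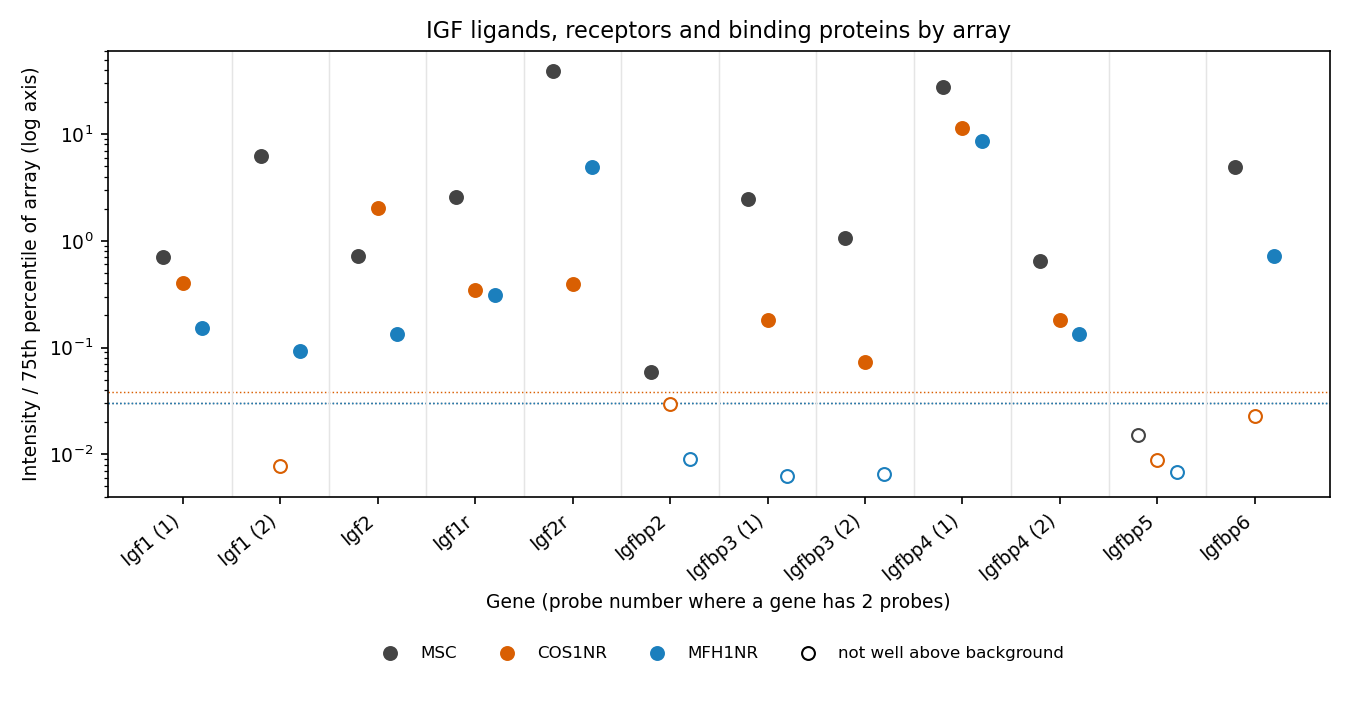
Intensity of each member probe divided by the 75th percentile of its array, on a log axis, for MSC, COS1NR and MFH1NR (1 array each, no error bars). Open circles were not well above background, dotted lines mark the lowest well-above-background intensity of each array (those of MSC and MFH1NR nearly coincide), and Igf2 is the only probe with its highest point in COS1NR.

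The share of all genes called in each direction depended on the scaling. Without scaling, the median log2 ratio of all genes was 0.52 for COS1NR over MSCs and 0.79 for MFH1NR over MSCs, with 33.2% higher and 15.1% lower in COS1NR and 42.1% higher and 13.2% lower in MFH1NR. With scaling by 7 spike-in probes the medians were -0.16 and 0.55, with 14.6% higher and 24.9% lower in COS1NR and 34.0% higher and 15.2% lower in MFH1NR. Between the sarcomas, spike-in scaling gave a median of 0.71 with 35.2% higher and 7.17% lower in MFH1NR, and no scaling gave 0.27 with 19.9% higher and 10.2% lower. The 8 members kept the sign of their ratio to MSCs in every scaling tried.

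Of the ligands, Igf2 set the sarcomas apart. The Igf2 probe had an intensity of 423 in MSCs against 1585 in COS1NR and 134 in MFH1NR, each well above background from 1 spot. Igf2 was thus highest in COS1NR and lowest in MFH1NR. It was 2.85-fold higher in COS1NR than in MSCs (log2 ratio 1.51) and 5.35-fold lower in MFH1NR than in MSCs (log2 ratio -2.42). The direct ratio of MFH1NR to COS1NR, 2 arrays on the same slide, was 15.3-fold lower (log2 ratio -3.93). Both directions held in all alternatives tried, with log2 ratios from 1.24 to 1.90 in COS1NR and from -2.42 to -1.66 in MFH1NR.

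The sum of the adipocyte markers had the same order over the arrays as Igf2, but not every marker did. Of 5 adipocyte markers with a probe, 5 were well above background in MSCs against 4 in COS1NR and 1 in MFH1NR, with summed scaled intensities of 1.83, 38.1 and 0.334. Fabp4, a fatty acid binding protein of adipocytes and macrophages, made most of the sum in COS1NR, with a scaled intensity of 28.2 there against 0.521 in MSCs, and it was not well above background in MFH1NR. Adipoq, which defines adipocytes, lacked the call in both lines. Cebpa, the marker that kept the call in MFH1NR, was above MSCs in both COS1NR and MFH1NR (log2 ratios 1.25 and 0.61). The part of these markers in the Igf2 ratios was not tested.

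Igf1 was measured by 2 probes that gave different pictures of the sarcomas. The first, designed on transcript NM_001082479, read 411 in MSCs, against 311 in COS1NR and 152 in MFH1NR. On it, Igf1 was 1.74-fold lower in COS1NR (log2 ratio -0.80) and 4.57-fold lower in MFH1NR (log2 ratio -2.19) than in MSCs. The second, designed on transcript NM_178866, had 3679 in MSCs, 5.98 in COS1NR, which was not well above background, and 91.6 in MFH1NR.

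The second Igf1 probe was therefore bright in MSCs alone. On it, Igf1 was lower in COS1NR by at least 164-fold (log2 bound -7.36) and 67.8-fold lower in MFH1NR (log2 ratio -6.08) than in MSCs. Both probes were highest in MSCs, but they disagreed on the order of the sarcomas. Igf1 was 2.63-fold lower in MFH1NR than in COS1NR by the first probe (log2 ratio -1.40) and at least 2.43-fold higher by the second (log2 bound 1.28). For MFH1NR over MSCs, where both probes were well above background, their log2 ratios were 3.89 apart, against a median gap of 0.36 over 2338 genes with several probes (bounds taken at their bound). For COS1NR the gap is itself a bound, at least 6.57. Which transcripts each probe captures was not tested, and the order of Igf1 in the sarcomas cannot be given from these probes.

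Both receptors were lower in the sarcomas, Igf1r by a like amount in the 2 lines and Igf2r by very different amounts. Igf1r was printed in several spots, given here as geometric mean and SD of the intensities. These were 1526 ± 54.9 (SD, n = 10 spots) in MSCs, 265 ± 6.80 (SD, n = 9 spots) in COS1NR and 310 ± 4.55 (SD, n = 9 spots) in MFH1NR. The lowest MSC spot, at 1434, lay far above the highest spot of either sarcoma, at 319. Igf1r was 7.55-fold lower in COS1NR (log2 ratio -2.92) and 8.31-fold lower in MFH1NR (log2 ratio -3.06) than in MSCs. The sarcomas differed by a log2 ratio of -0.14, less than the median gap of 0.18 between probes of a gene in this comparison (bounds at their bound), and the sign turned without scaling (0.22) and with spike-in scaling (0.65). No order of Igf1r between the sarcomas can be given.

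Igf2r, the receptor that clears IGF2, was highest in MSCs and, on the probes used, had the widest range among the 5 members well above background on all arrays. It read 22978 in MSCs, against 306 in COS1NR and 4923 in MFH1NR. It was 98.6-fold lower in COS1NR (log2 ratio -6.62) and 7.88-fold lower in MFH1NR (log2 ratio -2.98) than in MSCs. MFH1NR exceeded COS1NR by 12.5-fold (log2 ratio 3.65) on the shared slide. COS1NR thus had the highest Igf2 and the lowest Igf2r of the 3 arrays, and MFH1NR had the lowest Igf2. The sum of the fibroblast markers had the same order as Igf2r, with scaled intensities over 7 genes of 1051 in MSCs against 133 in COS1NR and 276 in MFH1NR. Of these markers, 5 were at least 2-fold higher in MFH1NR than in COS1NR, Dcn was lower (log2 bound -7.69), and Col1a1, with 113 of the COS1NR sum, had a log2 ratio of -0.05. Their part in the Igf2r ratios was not tested.

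**Figure D2:**
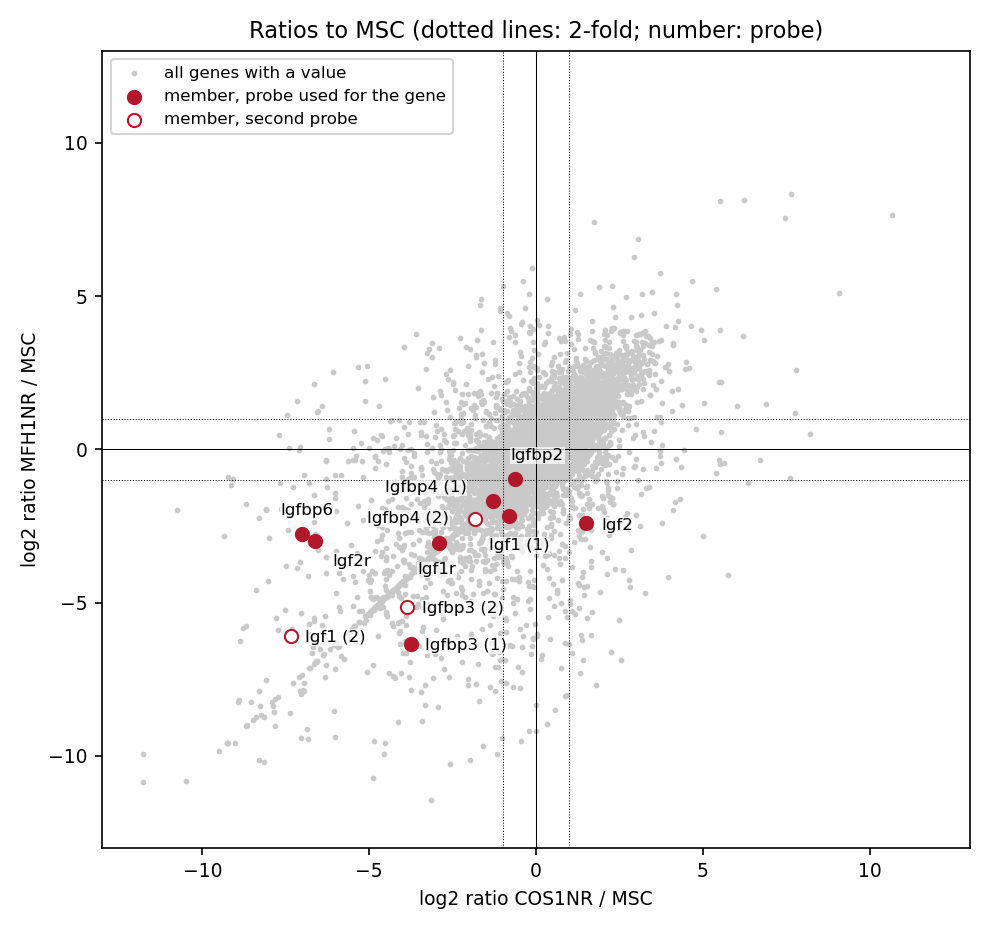
Log2 ratio of COS1NR to MSC (x axis) against that of MFH1NR to MSC (y axis), with 1 grey point per gene and member probes in red, numbered where a gene has 2 (open: second probe; bounds at their bound). Igf2 lies to the right of and below 0, Igf2r and Igfbp6 lie close together at the left, and Igf1r lies near equal ratios. The thin grey diagonal at the lower left is formed by genes with bounds in both sarcomas.

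The binding proteins among the members were lower in the sarcomas wherever a ratio to MSCs could be given. Igfbp6, which prefers IGF2 over IGF1, read 2921 in MSCs, against 17.6 in COS1NR, not well above background, and 724 in MFH1NR. It was lower in COS1NR by at least 131-fold (log2 bound -7.03) and 6.81-fold lower in MFH1NR (log2 ratio -2.77) than in MSCs. Like Igf2r it was higher in MFH1NR than in COS1NR, by at least 19.2-fold (log2 bound 4.26). The upstream windows printed above for these 2 genes differed in their CG content.

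Igfbp3, the main IGF carrier of serum, went the other way between the sarcomas and was not well above background in MFH1NR. Its first probe read 1453 in MSCs, against 141 in COS1NR and 6.15 in MFH1NR, the last not well above background. It was 13.5-fold lower in COS1NR (log2 ratio -3.76) and in MFH1NR by at least 81.6-fold (log2 bound -6.35), both against MSCs. The second probe had geometric means of 625 ± 20.9 (SD, n = 10 spots) in MSCs, 56.5 ± 3.91 (SD, n = 10 spots) in COS1NR and 6.46 ± 0.276 (SD, n = 9 spots) in MFH1NR, again not well above background. Both Igfbp3 probes gave the same order, with log2 ratios of COS1NR to MSCs of -3.76 and -3.86, and the second gave a bound of 35.1-fold for MFH1NR below MSCs. Igfbp3 was lower in MFH1NR than in COS1NR, by at least 6.03-fold on the first probe and at least 2.41-fold on the second.

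Igfbp4, a mostly inhibitory binding protein that PAPP-A cleaves, changed least among the members that passed 2-fold in both lines. Its first probe read 16369 in MSCs, against 8785 in COS1NR and 8638 in MFH1NR. It was 2.45-fold lower in COS1NR (log2 ratio -1.29) and 3.20-fold lower in MFH1NR (log2 ratio -1.68) than in MSCs, and without scaling it stayed under 2-fold in both, at -0.90 and -0.92. The second Igfbp4 probe gave 3.53-fold lower in COS1NR and 4.81-fold lower in MFH1NR. The sarcomas differed by a log2 ratio of -0.39 on the first probe, and the sign turned with spike-in scaling (0.40).

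Igfbp2 and Igfbp5, neighbors on chromosome 9 and both known from bone, were at or near background. Igfbp2 had an intensity of 34.9 in MSCs, and 22.8 in COS1NR and 8.96 in MFH1NR were not well above background. It was lower than in MSCs by at least 1.56-fold in COS1NR and by at least 1.96-fold in MFH1NR, bounds that did not reach 2-fold. Igfbp5 read 8.91 in MSCs, against 6.87 in COS1NR and 6.85 in MFH1NR, not well above background on any array, so no ratio is given. A dim probe can come from a low level or from the probe itself, and the 2 were not told apart here.

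**Figure D3:**
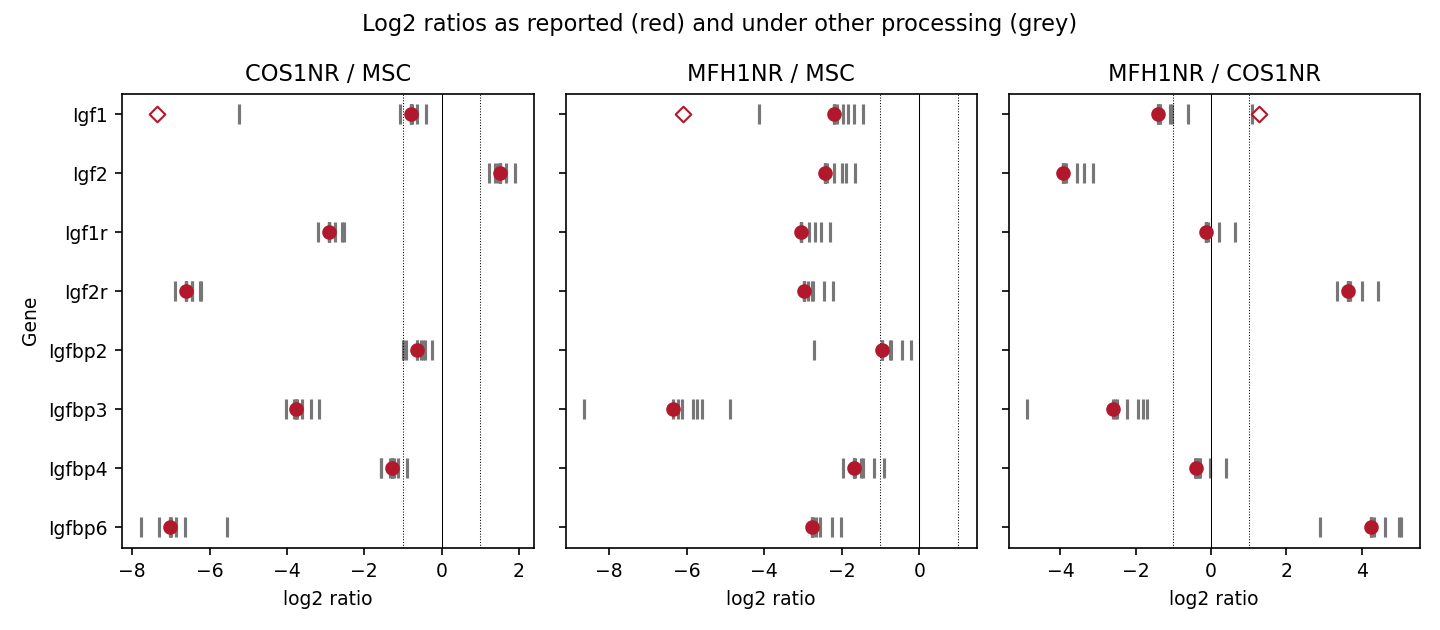
Log2 ratio of the members with a value, 8 in each comparison with MSC and 7 between the sarcomas, as reported (red circles) and under other scalings, background corrections and probe rules (grey ticks), with the second Igf1 probe as an open diamond. Dotted lines mark 2-fold. The Igf1 values spread furthest in the comparisons with MSC and those of Igfbp3 between the sarcomas. The values of Igf1 and Igf1r lie on both sides of 0 for MFH1NR over COS1NR, as does 1 value of Igfbp4.

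The genes most like each of the 5 members well above background on all arrays were sought among 7926 genes with the same call. Likeness was the distance between pairs of log2 ratios to MSCs, and other members were left out of the search. Among these members Igf2r stood farthest from the genes searched, with 0 within 0.5 and Lxn (0.600), Myl9 (0.630) and Igsf10 (0.884) nearest. Outside the search, Igfbp6 (-7.03 and -2.77) and Akr1c14 (-6.62 and -2.76) had log2 ratios near those of Igf2r, -6.62 and -2.98 (bounds at their bound). Igf2 had 6 genes within 0.5, with Agpat3 (0.291), Eif4e3 (0.325) and Angptl4 (0.325) nearest. Igf1r had 35, with C1qc (0.033), Loxl2 (0.092) and Itgb7 (0.124) nearest. Igfbp4 had 191, with Socs3, Cd40 and Tmem30a nearest, and the first Igf1 probe had 90, with Tfrc, Wls and Sgcd nearest. These are likenesses over 3 arrays only.

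Around the members, 8 lists of companion genes held 96 genes, of which 78 had a probe and 72 were well above background on at least 1 array. At least 2-fold lower in both sarcomas were 18, and at least 2-fold higher in both were 2, where the shares over all genes were 13.7% and 11.4%. Without scaling, 13 were lower in both and 7 higher in both, where 9.16% and 24.7% of all genes were. Among 9 relatives and carriers of the binding proteins, the median log2 ratio to MSCs was -1.99 in COS1NR and -0.86 in MFH1NR, with Ccn2, Ccn4, Ccn5 and Esm1 lower in both and Ccn1 higher in both.

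The secreted CCN proteins carry an IGFBP-like domain and bind matrix and integrins. Ccn2, also called CTGF, read 25434 in MSCs, against 390 in COS1NR and 11842 in MFH1NR, so it had the order of Igf2r and Igfbp6. Ccn1 had 1330, 29968 and 25062 in the same order, with log2 ratios to MSCs of 4.10 and 3.48. Igfbp1, a high-affinity binding protein, had log2 ratios of 0.02 and -0.86, Igfals, near background, had a bound of -0.52 and a ratio of -0.76, Ccn3 was lower in COS1NR (-1.99), and Igfbpl1 was not well above background on any array.

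Of 6 proteases and protease inhibitors, Mmp2 and Stc2 were at least 2-fold lower in both sarcomas, with medians of -0.79 and -0.74. Mmp2, a gelatinase that also cleaves IGFBPs, was lower in COS1NR (log2 ratio to MSCs -7.28) and in MFH1NR (-1.22). The stanniocalcins, inhibitors of PAPP-A, went apart in COS1NR, where Stc1 was higher (log2 ratio 2.97) and Stc2 lower (-3.75). Adam9 was lower in COS1NR (-1.27, and also at least 2-fold lower on its second probe), and in MFH1NR it had -0.26 and -1.69 on these probes. Ctsd was lower in MFH1NR (-1.26), while Htra1, which cleaves binding proteins, read 35873 in MSCs, against 54266 in COS1NR and 52696 in MFH1NR, with log2 ratios of 0.20 and -0.20.

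Downstream of the receptors the medians were near those of all genes. For the insulin receptor family and its adaptors they were -0.20 over 7 genes in COS1NR and 0.08 over 8 genes in MFH1NR. Irs2, an adaptor of IGF1R and the insulin receptor, was well above background in MSCs alone on the probe used, with log2 bounds of -6.39 and -6.72, while its 3 other probes gave bounds of -0.44 to -2.12 in COS1NR. Irs1 was well above background in MFH1NR alone (131), with a log2 bound of 2.11 over MSCs. The adaptor Gab1 and the RAS activator Sos1 were higher in MFH1NR (log2 ratios 3.44 and 2.67), and Grb14, an inhibitor of the receptors, was lower there (log2 bound -6.88). Shc1 and Grb2 stayed within 2-fold of MSCs in both lines, and Insr, near background, had a log2 ratio of 0.62 in COS1NR and a bound of -0.46 in MFH1NR.

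Of 21 genes of the PI3K-AKT-mTOR-FOXO branch, 2 were lower in both sarcomas (Ddit4 and Akt2) and 1 was higher (Foxo4), where Akt2 and Foxo4 are named after their values were seen, with medians of -0.09 and -0.07. Sgk1 was lower in COS1NR (-2.05) and higher in MFH1NR (1.82), and Ddit4, an inhibitor of mTORC1, was lower in both (-2.99 and -5.89).

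Igf2bp1, a protein that binds Igf2 mRNA and was the only one of its list with a named probe, was well above background in COS1NR alone, with intensities of 3.76 in MSCs against 584 in COS1NR and 16.0 in MFH1NR. It was thus high in the cell line with the highest Igf2, exceeding MSCs by at least 24.7-fold.

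Growth hormone induces Igf1 in liver and other tissues, and its signaling list had medians of -1.24 over 7 genes in COS1NR and -0.42 over 8 genes in MFH1NR. Stat5a, a mediator of growth hormone signals, had 3000 in MSCs, 25.9 in COS1NR, not well above background, and 5374 in MFH1NR, and Stat5b had 450, 11.7, also not well above background, and 1485. Cish, a STAT5 target, was lower in both sarcomas (-2.26 in each), as was Socs3 (-1.24 and -1.69), and Socs2 was well above background in MFH1NR alone. Ghr was lower in MFH1NR on the probe used (-1.01), while its other probes, near background, gave bounds of -0.99 and -0.31. Jak2 stayed within 2-fold, and Gh1 was not well above background in MSCs, with bounds of 0.60 and 0.44.

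**Figure D4:**
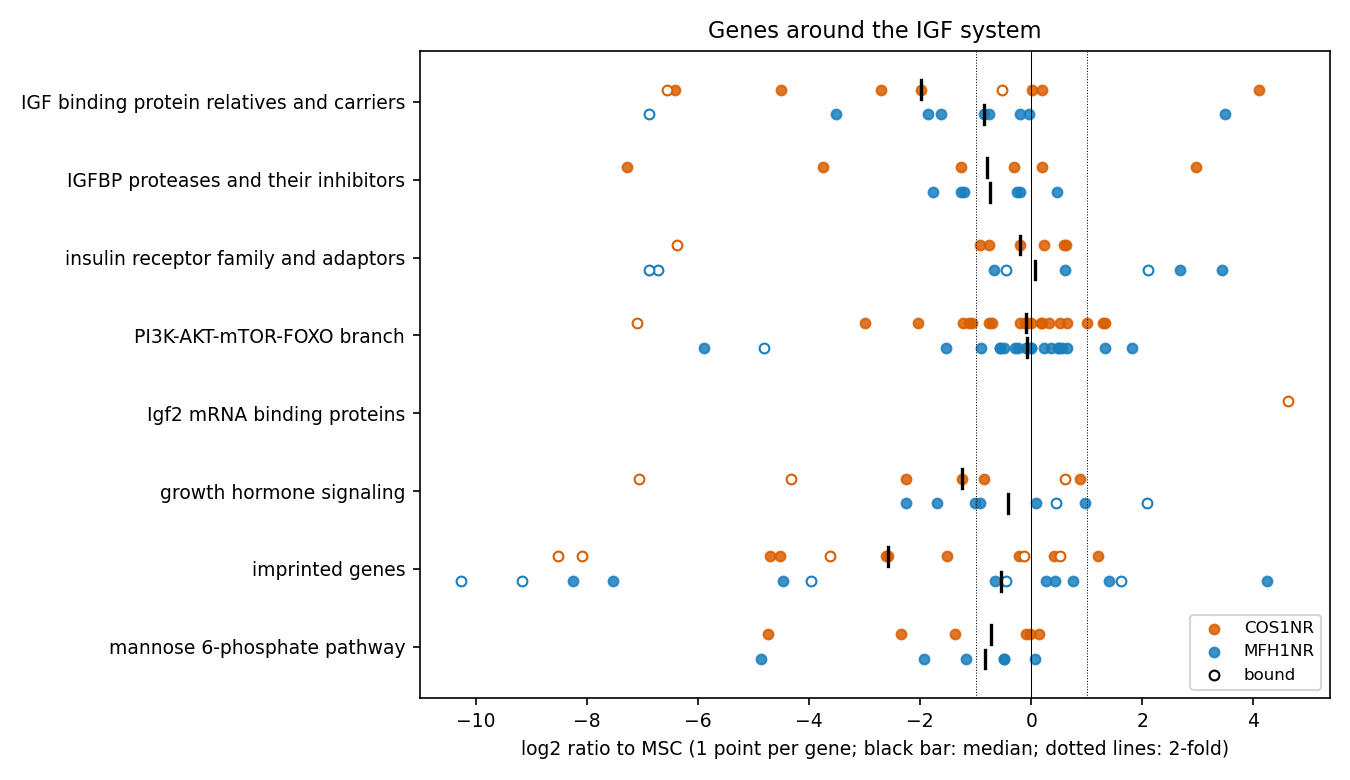
Log2 ratio to MSC of each companion gene in COS1NR and MFH1NR, by list, with 1 point per gene, open points for bounds and a black bar at the median of each list with more than 1 value. The imprinted genes had the lowest COS1NR median, -2.58, and the PI3K-AKT-mTOR-FOXO medians, -0.09 and -0.07, were the nearest to 0.

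Imprinted genes other than the members had a median of -2.58 over 13 genes in COS1NR and of -0.55 over 14 genes in MFH1NR, and 5 were lower in both (H19, Ndn, Dcn, and, named after their values were seen, Plagl1 and Nnat). H19, the noncoding RNA of the Igf2 locus, had 6104 in MSCs, 8.59 in COS1NR, not well above background, and 55.5 in MFH1NR, with a log2 bound of -8.09 and a log2 ratio of -7.54. Igf2 and H19 therefore went opposite ways in COS1NR and the same way in MFH1NR. Ndn was likewise bright in MSCs alone (8277, with log2 ratios of -8.53, a bound, and -8.26), whereas Sgce and Dcn, the latter also in the fibroblast list, were not well above background in MFH1NR (log2 bounds of -9.18 and -10.27).

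The mannose 6-phosphate list holds genes that work with Igf2r. M6pr, the other mannose 6-phosphate receptor, read 8218 in MSCs, against 10116 in COS1NR and 9864 in MFH1NR, with log2 ratios of -0.09 and -0.49, so the sorting receptors were not lowered alike. Plaur, a receptor that binds Igf2r, was lower in both sarcomas (-4.74 and -4.86), as was Nagpa (-1.37 and -1.93), which uncovers the mannose 6-phosphate tag. Tgfb1, whose latent form binds Igf2r, was lower in COS1NR (-2.35), Gga1 in MFH1NR (-1.18), and Gga2 had log2 ratios of -0.02 and 0.06.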

How the data were processed

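Cy3-labeled cRNA of MSCs, COS1NR and MFH1NR was hybridized to 1 array each. The authors deposited 1-colour Agilent Feature Extraction output (version 9.1 in the submitters' processing notes, 10.5.1.1 in the file headers), with background-subtracted processed intensity per spot that is not scaled between arrays. The deposited series table equals it on 45018 of 45018 rows of each array (relative tolerance 1e-06). Here, control spots and 187 to 217 outlier spots per array were left out, spots of a probe were averaged as log2, and each array was scaled by its 75th percentile. RefSeq accessions named 16745 of 20418 probes (table of GRCr8). A gene with several probes was represented by the one of highest mean log2 intensity over the arrays, and counted if well above background on at least 1 array (10009 genes). Bounds follow the rule given with the levels.

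All members are named, as are all genes of companion lists with up to 12 genes used, the 4 with the largest ratio to MSCs of longer lists, and the 3 genes nearest to each member. Some genes that this rule names are not reported here. Members and lists were chosen with earlier results of these data known. With 1 array per cell type no test was made. Alternatives were other scalings, background correction, probe rules, filters and a 3-fold threshold; normexp (limma 3.58.1, R 4.3.3, offset 50) on median spot signals and the second Igf1 probe were chosen after seeing the data. Steps were tested on simulated data. Python 3.11.15, numpy 2.4.6, pandas 2.3.3 and matplotlib 3.10.9 were used.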

Additional observations from a re-analysis of the deposited data

Results flagged for a closer look

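Igf2 differed between the sarcomas in direction: it was above MSCs in COS1NR (log2 ratio 1.51) and below MSCs in MFH1NR (log2 ratio -2.42), a log2 difference of -3.93 for MFH1NR minus COS1NR. With 1 array each, this difference was not tested.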

How the results depend on the processing

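Of 23 member log2 ratios, 20 kept their sign in all alternatives run, and of 18 at least 2-fold, 15 stayed at least 2-fold in all. Igf1 in MFH1NR over COS1NR turned from -1.40 to 1.09 with the mean of all probes and to 1.28 with its second probe, which follows from the disagreement of its probes. The other sign changes were Igf1r and Igfbp4 in the same comparison, given above. Members at least 2-fold higher in COS1NR than in MSCs went from 1 to 0 at a 3-fold threshold, where the share of all genes went from 20.8% to 9.82%. With only genes well above background on all arrays, which leaves 5 members, the members lower in COS1NR than in MSCs were 3 of 5 (5 of 8 before; 15.1% of all genes under this filter), and those higher in MFH1NR than in COS1NR 1 of 5 (2 of 7 before; 9.68%). Companion genes higher in both sarcomas went from 2 to 7 without scaling and those lower in both from 18 to 13, where the shares of all genes went from 11.4% to 24.7% and from 13.7% to 9.16%. With intensities as deposited in place of bounds, Igfbp2 passed 2-fold in COS1NR (-1.01) and MFH1NR (-2.72). Normexp on the mean spot signal was not run, since the files used here hold no such column, and the median was used. No leave-one-out and no paired analysis was possible because each cell type has 1 array. Signal over background limits Igfbp2, Igfbp5, and the dim side of each bound.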
